A study of Mus musculus with 6 samples.

Results

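Kupffer cells are the resident macrophages of the liver. The genes examined were 10 that mark or define this cell type, namely Cd5l, C1qa, Clec4f, Vsig4, Timd4, Marco, Slc40a1, Adgre1, Csf1r and Cd68. A probe was taken for a gene when the RefSeq accession given for it on the array belonged to that gene. By this rule 9 of the 10 genes were found, with 12 probes, and Cd68 was not matched. All 12 probes were well above background on all 6 arrays, so the 9 genes were among the 22351 genes tested of 37074 genes or positions on the array.

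The samples were livers of male L1-Tg mice and male WT littermates on a control fat diet (CFD). L1-Tg mice are hemizygous for human NPC1L1, a cholesterol transporter, under the APOE promoter, which drives it in the liver, and they had been backcrossed to C57BL/6J for at least 8 generations. The study's methods give an age range of 6 to 12 weeks for its mice. There were 3 arrays per genotype, each loaded with pooled liver RNA from 2 or 3 mice, so a pool is the unit of replication and the spread between single mice was not measured. In whole liver RNA, fewer Kupffer cells and less RNA per Kupffer cell cannot be told apart.

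Kupffer cells sit inside the liver sinusoids, where they clear microbes, dying cells, aged red blood cells and modified lipoproteins from portal blood. They are seeded before birth and maintain themselves locally, and after loss they can be replaced from blood monocytes that take on the same gene programme under signals from endothelial cells, stellate cells and hepatocytes. PU.1, MAF family and Notch-RBPJ factors and the sterol receptor LXR-alpha are known regulators of this programme. Clec4f and Vsig4 are used as markers of the Kupffer cell state in mice, Timd4 marks long-lived resident cells, and Adgre1 (F4/80) and Csf1r are shared by most tissue macrophages.

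RefSeq promoter sequence (build GRCm38.p6, with 250 bases before the annotated start) was examined for 6 of the 10 genes. The promoters of C1qa, Slc40a1, Adgre1 and Csf1r were not examined. The 3 printed here belong to the gene with the largest difference between genotypes (Cd5l), a lectin restricted to Kupffer cells among liver cells (Clec4f) and the gene with the widest spread between WT pools (Marco), which are genes whose levels moved together across pools below. They are written 5′ to 3′ in the direction of transcription, and capitals mark exact matches on either strand to GAGGAAG (a PU.1-type ETS core), TGCTGA (a MAF half-site) or TGGGAA (an RBPJ core); none of these matches overlapped another.
Cd5l, chr3:87357631-87357880, plus strand: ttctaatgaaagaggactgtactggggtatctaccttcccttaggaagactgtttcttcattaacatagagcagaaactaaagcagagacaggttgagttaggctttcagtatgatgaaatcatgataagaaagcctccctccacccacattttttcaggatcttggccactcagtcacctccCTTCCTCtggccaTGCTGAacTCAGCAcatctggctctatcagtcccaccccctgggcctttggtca
Clec4f, chr6:83656117-83656366, minus strand: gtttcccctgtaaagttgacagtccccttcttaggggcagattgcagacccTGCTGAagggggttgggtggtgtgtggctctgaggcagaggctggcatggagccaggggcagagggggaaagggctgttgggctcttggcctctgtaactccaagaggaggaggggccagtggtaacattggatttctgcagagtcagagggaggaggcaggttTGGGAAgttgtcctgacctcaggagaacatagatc
Marco, chr1:120505025-120505274, minus strand: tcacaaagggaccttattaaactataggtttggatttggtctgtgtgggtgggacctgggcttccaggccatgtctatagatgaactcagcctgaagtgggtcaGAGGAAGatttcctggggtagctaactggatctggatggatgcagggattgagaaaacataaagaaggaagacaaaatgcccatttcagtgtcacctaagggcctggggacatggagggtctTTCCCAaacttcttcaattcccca

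Of the 32851 promoter windows of the same length, 10.6% held GAGGAAG, 16.1% TGCTGA and 21.6% TGGGAA. The Cd5l window held 1 match to GAGGAAG and 2 to TGCTGA, all within 67 bases of the start. Clec4f had 1 TGCTGA and 1 TGGGAA, and Marco 1 GAGGAAG and 1 TGGGAA. Timd4 had 2 TGCTGA matches, Cd68 had 1 TGGGAA and Vsig4 had no match to any of the 3. These are matches of letters, and binding was not measured.

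The levels below are log2 signals relative to the 75th percentile of the same array, so that a level of 0 is a signal equal to that percentile. All 9 genes had a higher mean in L1-Tg mice than in WT mice, by 0.04 to 0.63 on the log2 scale, whereas 43.1% of all genes tested were higher. The median difference was 0.30 for the 9 genes and -0.03 for all genes tested. None of the 9 genes passed limma at an adjusted p under 0.05, a threshold passed by 29 genes or 0.13% of those tested. None had an unadjusted p under 0.05 either, against 8.86% of all genes tested, and none had all L1-Tg pools above all WT pools, against 7.28%. Each of the 9 differences was smaller than the range between the WT pools of that gene, as was the case for 84.6% of all genes.

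Cd5l encodes AIM, a protein that macrophages secrete into plasma. Its log2 signals were 5.93, 5.67 and 5.94 in the L1-Tg pools and 4.75, 5.09 and 5.79 in the WT pools. The L1-Tg pools lay close together, WT pools 1 and 2 lay below them, and WT pool 3 fell between L1-Tg pools 2 and 1. Cd5l was 1.55-fold higher in L1-Tg mice (log2 difference 0.63 ± 0.27, SE; 95% interval -0.01 to 1.27; limma adjusted p = 0.560).

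C1qa, a chain of the C1q molecule that starts the classical complement pathway, is made largely by macrophages. Its log2 signals were 3.13, 2.87 and 3.11 in L1-Tg pools and 2.14, 2.46 and 3.09 in WT pools. WT pool 3 again lay within the L1-Tg values and the other WT pools below all of them. The difference was 0.47 ± 0.24 (SE; 95% interval -0.11 to 1.06; limma adjusted p = 0.607).

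Clec4f, a C-type lectin receptor, had log2 signals of 4.51, 4.34 and 4.40 in L1-Tg pools and 3.67, 3.84 and 4.49 in WT pools. WT pool 3 lay just under the highest L1-Tg pool. The difference of 0.42 ± 0.22 (SE) had a 95% interval of -0.10 to 0.94 (limma adjusted p = 0.609).

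Vsig4, the complement receptor CRIg, gave 4.20, 4.07 and 4.02 in L1-Tg pools and 3.30, 3.84 and 4.30 in WT pools on the log2 scale. Here WT pool 3 was the highest of the 6 and WT pools 1 and 2 the lowest. Its difference was 0.28 ± 0.25 (SE; 95% interval -0.31 to 0.88; limma adjusted p = 0.718).

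Timd4, the receptor TIM-4 that binds phosphatidylserine on dying cells, gave -0.28, -0.45 and -0.52 in L1-Tg pools and -1.11, -0.83 and -0.18 in WT pools. The order of the WT pools was that of Vsig4, with WT pool 3 above every L1-Tg pool. Its difference was 0.29 ± 0.24 (SE; 95% interval -0.29 to 0.87; limma adjusted p = 0.706).

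Marco, a scavenger receptor for bacteria and particles, was the member with the widest spread in both groups. Its log2 signals were 4.45, 3.75 and 4.03 in L1-Tg pools and 3.05, 3.80 and 4.43 in WT pools, so that WT pool 3 had 2.60 times the signal of WT pool 1. Only WT pool 1 lay outside the L1-Tg range. The difference was 0.32 ± 0.36 (SE; 95% interval -0.56 to 1.20; limma adjusted p = 0.783).

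Slc40a1 encodes ferroportin, the exporter through which macrophages return iron from red blood cells to plasma, and hepatocytes express it as well. Its log2 signals were 4.51, 4.46 and 4.24 in L1-Tg pools and 4.10, 4.003 and 4.56 in WT pools. WT pool 2 was the lowest and WT pool 3 the highest of the 6. The difference was 0.18 ± 0.17 (SE; 95% interval -0.23 to 0.59; limma adjusted p = 0.737).

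The general macrophage markers came next. Adgre1, an adhesion receptor, gave 1.82, 1.64 and 1.97 in L1-Tg pools and 1.18, 1.28 and 2.08 in WT pools, with a difference of 0.30 ± 0.25 (SE; 95% interval -0.31 to 0.90; limma adjusted p = 0.708). Its other probe gave 0.28. Csf1r, the receptor for the growth factors on which macrophages depend, gave 5.49, 5.42 and 5.37 in L1-Tg pools and 5.03, 5.54 and 5.59 in WT pools. For Csf1r WT pools 2 and 3 were both above every L1-Tg pool and WT pool 1 was below them, and the difference was 0.04 ± 0.16 (SE; 95% interval -0.35 to 0.44; limma adjusted p = 0.945). The other 2 Csf1r probes gave differences of 0.21 and 0.03, and the range between WT pools was 0.91 for the first, 0.12 for the second and 0.56 for the brightest probe, so the 3 probes did not follow 1 pattern.

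**Figure D1:**
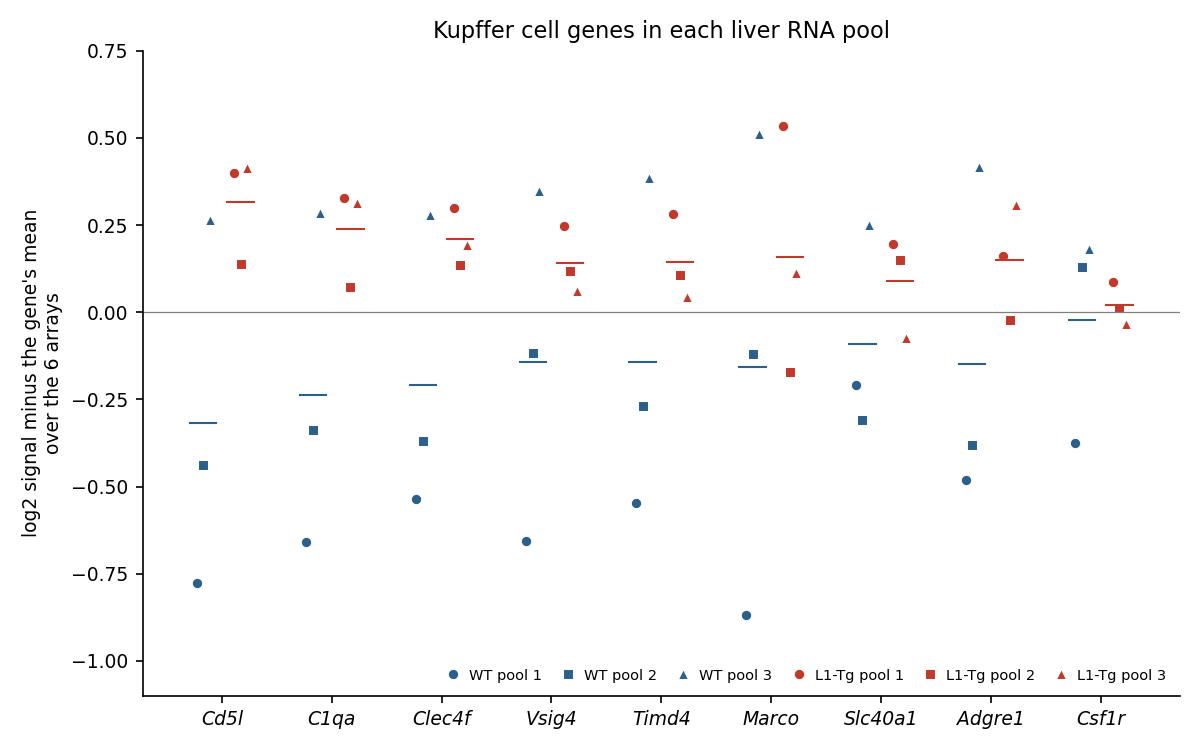
Log2 signal of the 9 Kupffer cell genes in each pool, minus the gene's mean over the 6 arrays (y axis); points are pools, blue for WT and red for L1-Tg, and lines are group means (n = 3 pools). WT pool 1 is the lowest of the 6 for 8 genes and WT pool 3 is the highest WT pool for all 9.

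The spread between WT pools followed 1 order in these genes. WT pool 1 was the lowest of the 6 arrays for 8 of the 9 genes, with Slc40a1 lowest in WT pool 2, whereas WT pool 1 was lowest for 15.9% of all genes tested. WT pool 1 lay below every L1-Tg pool for all 9 genes (24.7% of all genes), and WT pool 2 did so for 7 (33.1%), the exceptions being Marco and Csf1r. WT pool 3 was the highest WT pool for all 9 genes (30.1%), the highest of all 6 arrays for 5 (15.4%), and above the L1-Tg mean for 8 (53.1%), all but Cd5l. The ratio of WT pool 3 to WT pool 1 ran from 1.38 for Slc40a1 and 1.47 for Csf1r through 1.76 for Clec4f, 1.86 for Adgre1, 1.91 for Timd4, 1.93 for C1qa, 2.01 for Vsig4 and 2.06 for Cd5l to 2.60 for Marco. The SD was larger between WT pools than between L1-Tg pools for 9 of 9 genes, compared with 65.4% of all genes. These 9 genes were read from the same 6 RNA pools, so their shared order counts as 1 observation on 6 pools and not as 9.

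The difference between genotypes turned on which WT pool was included. Without WT pool 3, the median difference was 0.58, 7 of 9 genes had an unadjusted limma p under 0.05 in the direction of higher signal in L1-Tg mice (5.94% of all genes), and the groups did not overlap for 7 (13.7%), all but Marco and Csf1r. Cd5l then differed by 0.92, C1qa by 0.74, Clec4f by 0.66, Marco by 0.65, Adgre1 by 0.58, Timd4 by 0.55, Vsig4 by 0.53, Slc40a1 by 0.35 and Csf1r by 0.14. None passed the adjusted threshold, and the lowest adjusted p of the 9 in limma was 0.169. Without WT pool 1 the median fell to 0.12, no gene had an unadjusted p under 0.05, and Marco and Csf1r turned to lower means in L1-Tg mice (-0.04 and -0.13), Csf1r with no overlap between the groups (14.1% of all genes did not overlap in that direction). Without L1-Tg pool 2 the groups did not overlap for Cd5l and C1qa, higher in L1-Tg mice, against 11.7% of all genes. Nothing in the labels sets any pool apart, and which WT pools are typical cannot be told from 3.

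**Figure D2:**
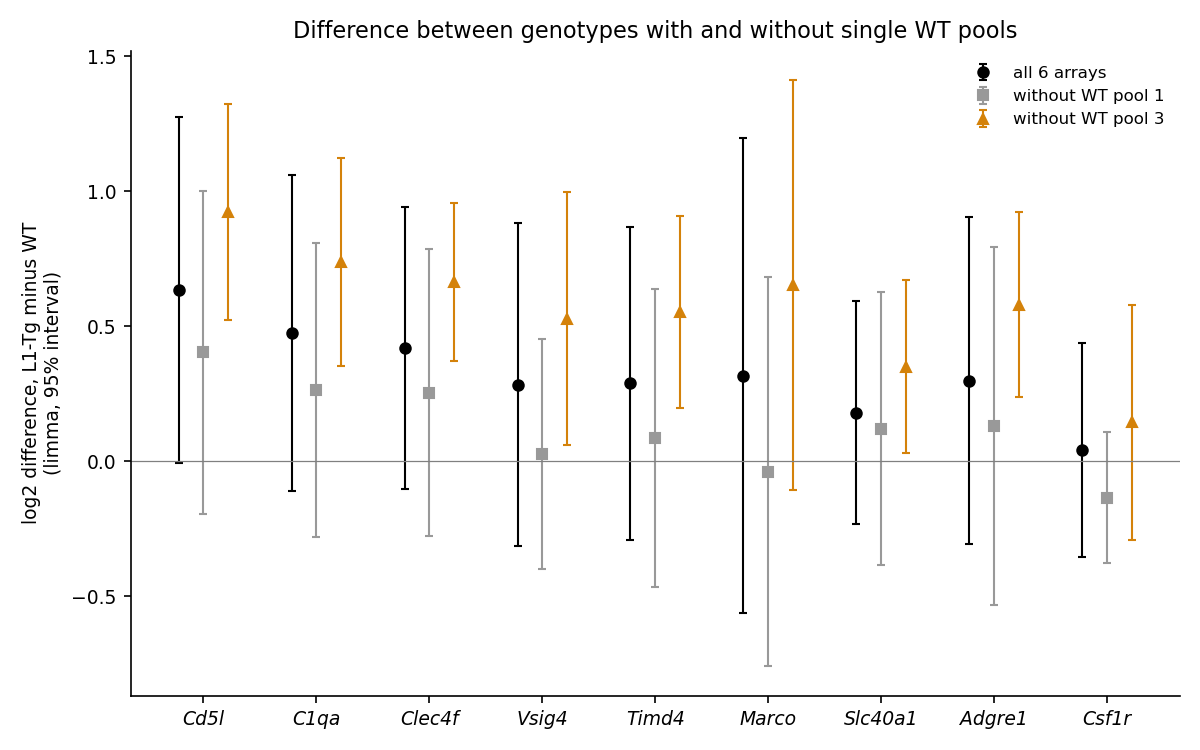
Log2 difference, L1-Tg minus WT (y axis), of each Kupffer cell gene with its 95% interval from limma, with all 6 arrays (black circles), without WT pool 1 (grey squares) and without WT pool 3 (orange triangles). With all arrays every interval includes 0, and without WT pool 3 the intervals of 7 genes lie above 0.

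The methods of the study used a difference index, the difference of the group means divided by the sum of the SDs, with a threshold of 0.7. On this index 3 of the 9 genes passed with higher signal in L1-Tg mice, namely Cd5l (0.91), Clec4f (0.76) and C1qa (0.72), against 8.67% of all genes on the array in that direction. The next was Vsig4 at 0.41. The count was 1 without WT pool 1, 0 without WT pool 2 and 8 without WT pool 3. Clec4f and C1qa passed narrowly, and the index is not a test and carries no error rate.

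Of 20 further Kupffer cell genes tested, 17 were higher in L1-Tg mice and 3 lower, with a median difference of 0.32 (0.18 without WT pool 1 and 0.55 without WT pool 3). WT pool 1 was the lowest of the 6 arrays for 14 of the 20, and WT pool 3 the highest WT pool for 16. Among them 1 had an unadjusted limma p under 0.05, against 8.86% of all genes tested, and none passed after adjustment. This was Sirpa, the receptor for the CD47 signal that restrains engulfment, with 1.08, 0.86 and 1.38 in L1-Tg pools and 0.47, 0.70 and 0.89 in WT pools, a difference of 0.42 (limma adjusted p = 0.558). Hpgd, a prostaglandin-degrading enzyme, was the 1 gene of the list without overlap. Of all genes tested, 7.28% were without overlap and higher in L1-Tg mice. Hpgd was at 3.72, 3.58 and 3.79 in L1-Tg pools and 3.46, 3.41 and 3.56 in WT pools, with WT pool 2 lowest (difference 0.22, limma adjusted p = 0.577). The shares of 8.86% and 7.28% also stand beside the counts of the lists below. The interleukin-18 binding protein gene Il18bp gave 1.90, 1.52 and 1.83 against 0.72, 1.12 and 1.72. In Il18bp the first and second WT pools were low and the third lay among the L1-Tg pools, as in C1qa. Nr1h3, which encodes LXR-alpha and was named after its values were seen, had another order, with WT pools at 5.20, 5.15 and 5.10. Whole liver RNA does not show which cells gave the Nr1h3 signal.

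Of 18 genes shared by mononuclear phagocytes 15 were higher in L1-Tg mice, with a median of 0.32 (0.14 without WT pool 1 and 0.53 without WT pool 3) and 2 genes with an unadjusted limma p under 0.05. Mpeg1, a pore-forming protein of macrophages, was at 4.13, 3.86 and 4.48 in L1-Tg pools and 2.47, 3.07 and 3.67 in WT pools, without overlap, and differed by 1.09 (limma adjusted p = 0.475). Ptprc (CD45), found on all white blood cells, differed by 0.50 (limma adjusted p = 0.547). No gene of the list passed the adjusted threshold.

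Markers of other cells that liver can hold were set beside these. Monocyte and recruited macrophage genes were higher in L1-Tg mice for 9 of 9 tested, with a median of 0.64, and 5 had an unadjusted limma p under 0.05 although none passed after adjustment. Plac8 differed by 0.83, F13a1 by 0.64 and the chemokine Ccl2 by 1.21. Ccl2 ranged from -1.52 to 0.31 in L1-Tg pools and from -2.29 to -1.58 in WT pools. F13a1, which is among the 5, and Ccr2, which is among the 9, were well above background on only 5 arrays each. Their lowest values were in WT pool 1 (-4.79 and -4.82). A signal near background may therefore enter their differences, and the unadjusted p of F13a1 is not read as a call. Unlike the Kupffer cell genes, this list placed WT pool 3 below the L1-Tg mean for all 9 genes. Its median without WT pool 1 was 0.51. The part of monocyte-derived cells in the values of the shared markers was not tested.

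Of 8 lipid-associated macrophage genes, which mark macrophages that take up lipid and debris, 6 were higher in L1-Tg mice. Gpnmb was well above background on 3 of 3 L1-Tg arrays and 0 of 3 WT arrays, so it was at least 1.72-fold higher in L1-Tg mice. This bound sets the L1-Tg mean against the dimmest probe that still counted as well above background on each WT array. Gpnmb was the 1 gene of all these lists with a limma adjusted p under the threshold (0.0271), but it entered the test through the L1-Tg arrays alone and its WT signals were not well above background, so that p is not read as a call. Trem2, a lipid receptor of these cells, differed by 0.92 with WT pool 3 below the L1-Tg mean (limma adjusted p = 0.534), and Spp1 by 0.52 (limma adjusted p = 0.581).

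Granulocyte and lymphocyte markers were more scattered. Of 6 neutrophil genes 5 were higher, with a median of 0.71 (0.39 without WT pool 1) and none with an unadjusted limma p under 0.05, and S100a8 ranged from -0.25 to 0.71 in L1-Tg pools and from -1.51 to -0.06 in WT pools. Of 10 lymphocyte genes 6 were higher and 4 lower, with a median of 0.22 (0.03 without WT pool 1 and 0.07 without WT pool 3), and Cd3e was the 1 with an unadjusted limma p under 0.05, with a difference of -0.30 (limma adjusted p = 0.556). WT pool 1 was the lowest of the 6 arrays for 3 of the 6 neutrophil genes and 6 of the 10 lymphocyte genes.

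The other liver cell types differed less between pools. Each gene was centered on its mean over the 6 arrays and the median taken over each list. For the Kupffer cell genes this median was 0.28, 0.11 and 0.11 in L1-Tg pools and -0.55, -0.31 and 0.29 in WT pools. For 12 sinusoidal endothelial genes it was 0.03, 0.04 and -0.04 in L1-Tg pools and -0.08, -0.08 and 0.08 in WT pools, so here too WT pools 1 and 2 were the lowest and WT pool 3 the highest, at a smaller size. For these genes WT pool 3 was the highest WT pool in 7 of 12. For 12 hepatocyte genes the median lay between -0.19 and 0.10. For 11 stellate cell genes it ran from -0.24 to 0.11, with the low value in L1-Tg pool 1. The hepatocyte genes were lower in L1-Tg mice for 9 of 12, and Pck1, Ass1 and Apoa1 had an unadjusted limma p under 0.05 (differences of -0.46, -0.36 and -0.49) without passing after adjustment. The hepatocyte median was 0.07, 0.09 and 0.10 in the WT pools, so the median did not separate WT pool 3 from the others as that of the Kupffer cell genes did. Single hepatocyte genes were more mixed. WT pool 3 was the highest of the 6 arrays for 5 of 12 (15.4% of all genes) and the highest WT pool for 6 (30.1%). It was above the L1-Tg mean for 10 of 12 (53.1%), so a high WT pool 3 was not particular to macrophage genes.

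**Figure D3:**
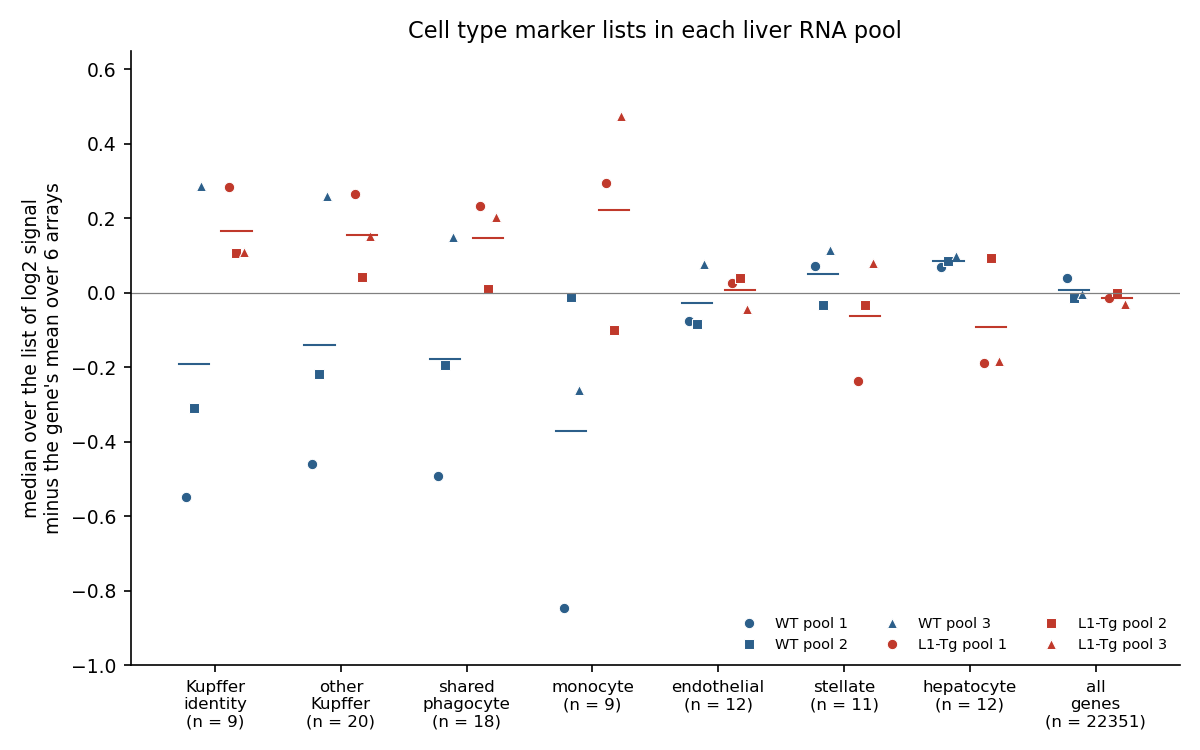
Median over each marker list of the log2 signal minus the gene's mean over the 6 arrays (y axis), for each pool; blue is WT, red is L1-Tg, lines are group means (n = 3 pools), and n under each name is the number of genes. WT pools 1 and 2 lie low and WT pool 3 near the L1-Tg pools for the 3 macrophage lists on the left, whereas the endothelial medians stay between -0.08 and 0.08.

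Genes acting around the Kupffer cell were also examined. Of 14 niche signals and their receptors 8 were higher and 6 lower, with a median of 0.05, and Tgfbr2, a receptor for TGF-beta, was the 1 with an unadjusted limma p under 0.05, at 2.52, 1.99 and 2.49 in L1-Tg pools and 1.79, 1.66 and 1.85 in WT pools (difference 0.57, limma adjusted p = 0.470). Notch1, a receptor upstream of RBPJ, had the largest difference of the list and in the other direction, with 0.04, -0.02 and -0.65 in L1-Tg pools and 1.34, 0.69 and -0.31 in WT pools (difference -0.78, limma adjusted p = 0.617). Csf1, a ligand of Csf1r, differed by 0.31 (limma adjusted p = 0.633). Among 17 clearance receptors and bridging proteins 12 were higher, with a median of 0.09 (0.02 without WT pool 1 and 0.17 without WT pool 3). Cd36, a receptor for oxidized lipoproteins and fatty acids that hepatocytes also express, was the 1 with an unadjusted limma p under 0.05, at 1.70, 1.03 and 1.79 against 0.34, -0.69 and 0.41 (difference 1.48, limma adjusted p = 0.373). Cd36 did not place WT pool 3 near the L1-Tg pools.

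The partners of 2 members gave no common shift. Of 12 genes of the classical complement pathway, 7 were higher and 5 lower, the median difference was 0.02 and none had an unadjusted limma p under 0.05. Within this list C1qb and C1qc, made with C1qa by macrophages, differed by 0.49 and 0.35, and the hepatocyte-expressed protease gene C1s1 was at 5.45, 5.25 and 5.37 in L1-Tg pools and 5.52, 5.61 and 5.52 in WT pools, with no overlap and a difference of -0.19 (limma adjusted p = 0.593). Of 17 genes of iron recycling and hepcidin 10 were higher and 7 lower, with a median of 0.03 and no unadjusted limma p under 0.05. WT pool 3 was the highest WT pool for 12 of these 17 genes, against 30.1% of all genes. Slc11a1, a metal transporter of the phagosome membrane, had 1.08, 0.80 and 1.04 in L1-Tg pools and -0.04, 0.33 and 1.19 in WT pools, the same pool order as most Kupffer cell genes, and differed by 0.48 (limma adjusted p = 0.649). Hamp2, a paralog of hepcidin, spread from 2.09 to 3.42 in L1-Tg pools and from 3.01 to 4.82 in WT pools and differed by -1.04 (limma adjusted p = 0.607).

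All 6 arrays lay on 1 slide scanned once, with WT in row 1 and L1-Tg in row 2, so slide row and genotype cannot be told apart. The 75th percentile of the signals ran from 296.8 to 377.8 intensity units, 53.1% to 59.2% of spots were well above background and no spot was saturated. WT pool 1 had the lowest share of spots well above background, and WT pool 3 was within the range of the other arrays on both measures. The part of this in the order of the pools was not tested. The probe for mouse Npc1l1 gave 15.7 to 30.3 intensity units and was well above background on 3 of 6 arrays, and it does not check the human transgene.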

How the data were processed

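Liver RNA of 3 L1-Tg and 3 WT pools was measured on 1-color arrays. Per the labels, the authors extracted signals with Agilent Feature Extraction 10.10.1.1 (mm9 probe positions). The deposited processed signal is a linear intensity with background subtracted and no scaling between arrays. The authors' normalized matrix, used as an alternative, equals it times 1 factor per array (2.457 to 2.976).

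Control spots were left out, non-uniform spots were set to missing, and repeated spots of 432 probes were averaged. The deposited marks of 0 or 1 for spots well above background gave the filter: all arrays of at least 1 group. Signals were taken as log2 minus the 75th percentile of the array. Of 28685 probes with RefSeq names, 27235 matched a symbol in the RefSeq table. A gene was represented by its brightest probe, and 22351 genes were tested. Precision is bounded by having 3 pools per group. Two-sided moderated tests were run with lmFit and eBayes of limma 3.58.1 (R 4.3.3) and adjusted by Benjamini-Hochberg across every gene tested, at a threshold of 0.05, and the code was tested on simulated data. Nothing says how the pools were made beyond 2 or 3 mice each, so p-values measure the spread between pools, and with 3 against 3 an exact permutation test cannot go below 0.10. The index was computed over all 37074 genes on linear signals divided by the 75th percentile.

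The members and the marker lists were chosen with earlier results of these data known, and no list was tested as a set. Named are all members and, from each list, genes among the 3 with the smallest p or past the threshold, apart from Nr1h3 and Ccr2. C1qc and Slc11a1 are among those 3 in the complement and iron lists. Alternatives were quantile, median or no scaling, normexp (offset 50), a filter requiring all 6 arrays or none at all, averaging over probes and the authors' matrix. Further ones were a plain two-sample test without moderation, a replicate block, other index thresholds and leaving out each pool.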

Additional observations from a re-analysis of the deposited data

How the results depend on the processing

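Under the 16 alternatives, 0 of the 9 Kupffer cell genes passed the adjusted threshold in limma. The count of genes with an unadjusted p under 0.05, 0 of 9 with all arrays, was 1 under scaling to the array median, normexp, the filter on all 6 arrays and the replicate block, and 0 to 7 when single pools were left out, the 7 without WT replicate 3. The count without overlap, 0 of 9, was 0 to 7 when single pools were left out: 7 without WT replicate 3, 2 without L1-Tg replicate 2 and 1 without WT replicate 1. The median difference was 0.12 to 0.58 when single pools were left out and 0.29 to 0.41 under the others. The index count of 3 was 1 without scaling, 0 at a modulus above 1, 0 with at least a 2-fold difference added, and 0 to 8 when single pools were left out, with 8 without WT replicate 3, 1 without WT replicate 1 and 0 without WT replicate 2. Without WT replicate 1 the differences of Csf1r and Marco reversed, and when single pools were left out they ran from -0.135 to 0.143 for Csf1r and from -0.0383 to 0.652 for Marco, the highest without WT replicate 3. The causes were not tested. Scaling to the array median moved the median difference of all genes from -0.03 to 0.08, and all 9 Kupffer cell genes stayed higher in L1-Tg mice. Nothing in the labels or methods says that the replicate numbers pair the pools. Correlations of same-numbered deviations were -0.158, 0.111 and 0.0185, which cannot show whether pools were paired. With the replicate block 11 genes in place of 29 passed the adjusted threshold over all genes. That number was 10 without the filter on dim probes and 15 to 36 when single pools were left out. It was 0 with a plain two-sample test (1839 unadjusted), which the study's methods do not name for the arrays.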
